A study of Mus musculus with 4 samples.

Results

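The transcripts described here are 56 genes of amino acid, urea, one-carbon and sulfur metabolism in mouse liver, chosen by symbol from a list of liver enzymes and matched to the gene column of the edgeR results that the study deposited. Of the 56 genes, 30 were listed there and 26 were not. RNA-Seq compared male wild-type FVB/N mice fed, from weaning at 3 weeks of age and for 6 weeks, a Se-deficient torula yeast diet with no added Se (0 Se, 2 mice) or the same kind of diet with 0.1 ppm Se as sodium selenite (0.1 Se, 2 mice). Both groups carried no engineered allele, and liver RNA was sequenced after removal of rRNA. The comparison asks which liver mRNAs differ between Se-adequate and Se-deficient mice. A fold change is 0.1 Se over 0 Se, so a value above 1 means more mRNA in the Se-adequate mice.

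The liver is the main site where the amino acids of the diet are broken down. Their nitrogen is collected by transaminases and glutamate dehydrogenase and enters the urea cycle, while their carbon skeletons are degraded by enzymes that are largely particular to hepatocytes. Methionine is activated to S-adenosylmethionine, the donor of most methyl groups, and the homocysteine that remains is either methylated again, with folate or betaine as donor, or passed through cystathionine to cysteine and taurine. Selenomethionine and selenocysteine enter several of the same enzymes as their sulfur counterparts.

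The results hold 1 line per gene with an mRNA length, a log2 fold change, an average level over the 4 libraries in CPM (counts scaled to a common library total), and the p-value and FDR of the comparison. No value belongs to a single mouse, so depth per library and the spread between mice were not analysed here. The level in each diet was worked out from the average CPM together with the fold change, and standard errors (SE) and 95% intervals from the p-value. The intervals rest on the pooled estimate of spread made by the authors with 2 mice per diet. Each library is labelled with 1 mouse. A gene was called when its FDR was under 0.05 and its change was above 1.5-fold. In whole liver RNA, fewer cells of a type and less RNA per cell cannot be told apart.

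Most of the listed genes differed little between the diets. The 2 exceptions were both placed in the largest group, methionine and sulfur metabolism. Nnmt, which methylates nicotinamide with S-adenosylmethionine, was 3.10-fold higher in 0.1 Se. Csad, which decarboxylates cysteine sulfinate on the way to taurine, was lower in 0.1 Se at 0.556-fold. Nnmt and Csad were the only members called, 1 higher and 1 lower. In a test against a 1.5-fold change neither was called, at an FDR of 0.118 for Nnmt. The call of Nnmt also ended with a minimum mean of 5 CPM, and that of Csad under Bonferroni adjustment, at 0.0579. Among all 11033 genes tested, 3.17% were called, 1.70% as higher and 1.47% as lower. The share of members called can be read against these only with reservations. The members were chosen with earlier results of these data known, and the 26 unlisted members may include genes that were not tested. Without a fold threshold the called members were the same 2, where 4.57% of all genes tested passed the FDR. At an unadjusted p under 0.05, which 14.7% of the genes tested passed, the members were Nnmt, Got1 and Tst as higher and Csad, Glud1 and Mat2a as lower, 6 genes in all.

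**Figure D1:**
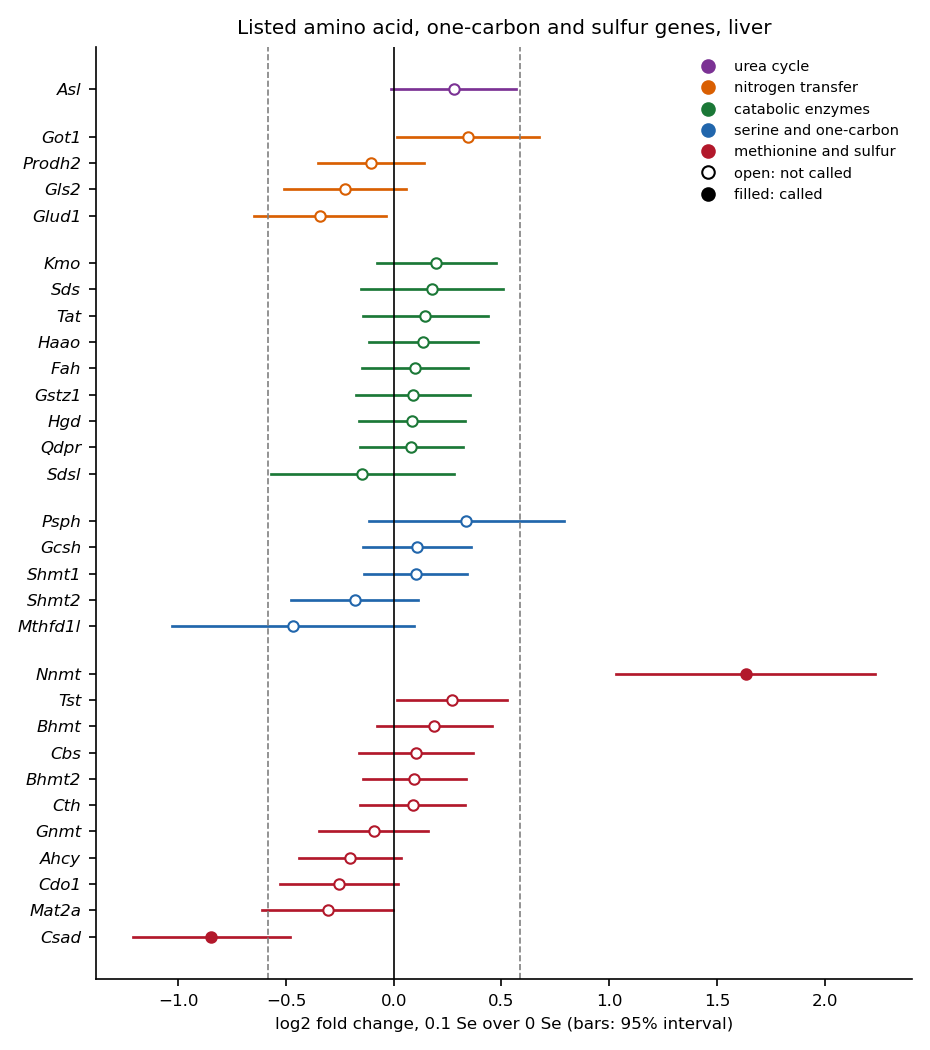
Log2 fold change (0.1 Se over 0 Se) of the 30 listed members, grouped by pathway, with bars for the 95% interval back-calculated from the p-value; filled points were called, and dashed lines mark 1.5-fold in either direction. Nnmt at 1.63 and Csad at -0.85 lie apart from the other 28, of which 23 have an interval wholly inside the dashed lines.

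The median log2 fold change of the 30 listed members was 0.09, the same as the 0.09 of all 7000 listed genes. The median size of the change without regard to its sign was 0.18 for the members and 0.24 for all listed genes. The members were more abundant, with a median mean level of 231 CPM against 18.7 CPM for all listed genes. Summed over the listed members, the level was 14242 CPM in 0 Se and 14230.4 CPM in 0.1 Se. Of the 28 that were not called, fold changes ran from 0.723 to 1.27, and 23 had a 95% interval that lay wholly between 1.5-fold lower and 1.5-fold higher. The other 5 were Glud1, Got1, Psph, Mthfd1l and Mat2a. Only genes with a p-value up to 0.553 were listed, so medians over listed genes leave out those nearest to no change.

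Of the 6 enzymes of the urea cycle, 1 was listed. Asl, argininosuccinate lyase, which releases arginine and fumarate, was at 286 CPM in 0 Se and 347 CPM in 0.1 Se. Its fold change was 1.21 with a 95% interval of 0.992 to 1.48, and its FDR was 0.372. The point lay above 1, but the interval included no change and stayed under 1.5-fold. Cps1, Otc, Ass1 and Arg1, the other enzymes of the cycle, and Nags, which makes the activator of carbamoyl phosphate synthetase, were not listed.

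Of 11 genes that move amino groups or make and use glutamate, glutamine, proline or asparagine, 4 were listed and none passed the FDR of 0.05. Glud1, glutamate dehydrogenase, was the most abundant of them per length, with a mean of 369 CPM per kilobase. Its level was 1304 CPM in 0 Se and 1028 CPM in 0.1 Se, a fold change of 0.789 with a 95% interval of 0.638 to 0.975, an unadjusted p of 0.0286 and an FDR of 0.253. Got1, the cytosolic aspartate aminotransferase, had its point on the other side. Its level was 75.9 CPM in 0 Se and 96.3 CPM in 0.1 Se, a fold change of 1.27 with a 95% interval of 1.01 to 1.59 and an FDR of 0.311. Gls2, the liver glutaminase that releases ammonia from glutamine, was at 0.854-fold, and Prodh2, a hydroxyproline dehydrogenase, at 0.929-fold. The group thus held 1 gene with a point above 1 and 3 below, with a median log2 fold change of -0.17, and no gene in it was shown to differ once all genes tested were taken into account. Got2, Gpt, Gpt2, Glul, Oat, Prodh and Asns were not listed.

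The enzymes that degrade tyrosine, tryptophan and serine were the best represented, with 9 of 11 listed, and none was called or passed an unadjusted p of 0.05. All 9 had a 95% interval wholly inside 1.5-fold in both directions. Tat, tyrosine aminotransferase, which opens tyrosine breakdown, was the most abundant per length with a mean of 595 CPM per kilobase. It was at 1343 CPM in 0 Se and 1486 CPM in 0.1 Se, a fold change of 1.11 with a 95% interval of 0.904 to 1.35 and an FDR of 0.744. The later steps of tyrosine breakdown had similar points. Hgd, homogentisate dioxygenase, was at 1.06-fold, Gstz1, maleylacetoacetate isomerase, at 1.06-fold, and Fah, fumarylacetoacetase, at 1.07-fold. Qdpr, which regenerates the tetrahydrobiopterin cofactor of phenylalanine hydroxylase, was at 1.06-fold. In tryptophan breakdown through kynurenine, Kmo, kynurenine 3-monooxygenase, had the highest point of the group. It was at 457 CPM in 0 Se and 524 CPM in 0.1 Se, a fold change of 1.15 with a 95% interval of 0.946 to 1.39 and an FDR of 0.579. Haao, a dioxygenase further down the same route, was at 1.10-fold. Sds, serine dehydratase, which turns serine into pyruvate, was at 1.13-fold. Its neighbour on chromosome 5, Sdsl, had the lowest point of the group and was scarce, at 6.74 CPM in 0 Se and 6.09 CPM in 0.1 Se. The fold change of Sdsl was 0.904 with a 95% interval of 0.674 to 1.21 and an FDR of 0.848. In all, 8 of the 9 points lay above 1, with a median log2 fold change of 0.10, against 3586 of 7000 listed genes with points above 1. This median fell to 0.04 once a shift of fold changes with mRNA length, described further on, was removed. Tdo2 and Hpd were not listed.

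Serine synthesis and the folate-bound one-carbon pathway had 5 of 11 genes listed, and none was called or passed an unadjusted p of 0.05. Shmt1, the cytosolic serine hydroxymethyltransferase that passes a carbon from serine to folate, was the most abundant of these per length with a mean of 122 CPM per kilobase. It was at 243 CPM in 0 Se and 261 CPM in 0.1 Se, with a fold change of 1.07, a 95% interval of 0.908 to 1.27 and an FDR of 0.792. Its mitochondrial counterpart Shmt2 had its point below 1, at 0.881-fold. Gcsh, the lipoyl carrier of the glycine cleavage system, was at 1.08-fold. The widest points came from the scarcest genes. Psph, phosphoserine phosphatase, the last step of serine synthesis, was at 4.49 CPM in 0 Se and 5.67 CPM in 0.1 Se, a fold change of 1.26 with a 95% interval of 0.923 to 1.73 and an FDR of 0.551. Mthfd1l, which releases formate from folate in mitochondria, was at 3.06 CPM in 0 Se and 2.21 CPM in 0.1 Se, a fold change of 0.723 with a 95% interval of 0.490 to 1.07 and an FDR of 0.475. The intervals of Psph and Mthfd1l reached past 1.5-fold, so a change of that size was not excluded by these libraries. Phgdh, Psat1, Gldc, Amt, Mthfd1 and Mthfs were not listed.

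Methionine and sulfur metabolism had 11 of 17 genes listed and both of the called genes. It was the largest group, and 3.17% of all genes tested were called, so 2 calls do not set it apart. In the methionine cycle proper, 4 of 6 genes were listed and none passed the FDR of 0.05. Bhmt, which remethylates homocysteine with betaine, was the most abundant of the 30 listed members per length. It was at 2301 CPM in 0 Se and 2622 CPM in 0.1 Se, a fold change of 1.14 with a 95% interval of 0.946 to 1.37 and an FDR of 0.583. Its neighbour on chromosome 13, Bhmt2, which uses S-methylmethionine as donor, was at 1.07-fold. Ahcy, which splits S-adenosylhomocysteine, had its point below 1, at 0.868-fold. Mat2a, the form of methionine adenosyltransferase found mostly outside the adult liver, was at 62.6 CPM in 0 Se and 50.6 CPM in 0.1 Se, a fold change of 0.808 with a 95% interval of 0.655 to 0.997. The unadjusted p of Mat2a was 0.0464 and its FDR 0.328. Mat1a, the liver form, and Mtr, methionine synthase, were not listed.

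Of the 4 methyltransferases that use S-adenosylmethionine, 2 were listed, and they stood far apart in level. Gnmt, glycine N-methyltransferase, which disposes of excess S-adenosylmethionine in hepatocytes, was at 845 CPM in 0 Se and 792 CPM in 0.1 Se and had a fold change of 0.938. Nnmt, nicotinamide N-methyltransferase, was at 1.18 CPM in 0 Se and 3.65 CPM in 0.1 Se. The fold change of Nnmt was 3.10 with a 95% interval of 2.05 to 4.70, a log2 fold change of 1.63 with an SE of 0.31, and an FDR of 1.78e-05. It ranked 18 among the 188 called increases by size. Nnmt is thus a scarce transcript in these livers, with a mean of 2.53 CPM per kilobase, 29th of the 30 listed members. The gene (ENSMUSG00000032271.7) lies on the minus strand of chromosome 9 from 48399982 to 48413258 in mm9, its annotated mRNA has 4 exons, and no exon of another gene overlaps it. Gamt and Pemt, which make creatine and phosphatidylcholine, were not listed.

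All 4 genes that lead from homocysteine to taurine were listed. Cbs, cystathionine beta-synthase, was at 316 CPM in 0 Se and 339 CPM in 0.1 Se, with a fold change of 1.07. Cth, cystathionine gamma-lyase, was at 103 CPM in 0 Se and 110 CPM in 0.1 Se, with a fold change of 1.06. The 95% intervals of both, 0.893 to 1.29 for Cbs and 0.898 to 1.26 for Cth, included no change. Downstream of cysteine the points lay below 1. Cdo1, cysteine dioxygenase, which oxidizes cysteine to cysteine sulfinate, was at 1406 CPM in 0 Se and 1180 CPM in 0.1 Se, a fold change of 0.839 with a 95% interval of 0.694 to 1.01 and an FDR of 0.401. Csad, the enzyme after it, was at 167 CPM in 0 Se and 93.0 CPM in 0.1 Se. The fold change of Csad was 0.556 with a 95% interval of 0.432 to 0.716, a log2 fold change of -0.85 with an SE of 0.19, and an FDR of 0.000513. By size it ranked 48 among the 162 called decreases. Whether Csad differed from Cdo1 in its fold change was not tested. Their intervals overlap only from 0.694 to 0.716, which shows neither agreement nor difference. Tst, rhodanese, which transfers sulfur to cyanide, was at 169 CPM in 0 Se and 204 CPM in 0.1 Se, a fold change of 1.20 with a 95% interval of 1.01 to 1.44, an unadjusted p of 0.0395 and an FDR of 0.306. Suox, sulfite oxidase, and Mpst, mercaptopyruvate sulfurtransferase, were not listed.

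Csad (ENSMUSG00000023044.1) lies on the minus strand of chromosome 15 from 102007429 to 102019474 in mm9, with 15 exons and an mRNA of 2265 bases, the length used in the deposited results. RefSeq gives it 2 transcription starts, and counts over 1 mRNA per gene do not separate them. The 2 starts lie farther apart in GRCm38.p6 than the mm9 span is long, so that span does not hold both. Which start belongs to the mRNA of 2265 bases was not determined. The bases before both starts are shown because Csad was the member called lower. Each runs over the 250 bases before the start on the minus strand of GRCm38.p6, written 5′ to 3′ along the gene, with capitals for a CCAAT box in the first, at chr15:102205053-102205302, and for a GC box read on the opposite strand in the second, at chr15:102189044-102189293.
Csad, upstream start: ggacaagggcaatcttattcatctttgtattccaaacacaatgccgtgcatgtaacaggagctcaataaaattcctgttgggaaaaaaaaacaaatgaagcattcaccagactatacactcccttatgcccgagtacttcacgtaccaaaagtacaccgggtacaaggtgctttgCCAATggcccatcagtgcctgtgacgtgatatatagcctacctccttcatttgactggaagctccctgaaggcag
Csad, downstream start: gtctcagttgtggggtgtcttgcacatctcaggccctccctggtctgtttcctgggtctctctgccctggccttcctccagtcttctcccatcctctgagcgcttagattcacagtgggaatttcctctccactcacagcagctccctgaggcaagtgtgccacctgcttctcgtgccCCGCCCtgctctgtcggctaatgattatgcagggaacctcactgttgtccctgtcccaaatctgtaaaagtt
No TATA box of the letters TATAAA lies in either. Start regions, from 250 bases before to 50 bases after a start, were found in RefSeq for 44 of the 56 genes, 51 in all, and 4 motifs were sought on both strands. CCAAT was in 52.9% of the members' regions and 37.4% of all 32851 regions of this length, and the GC box GGGCGG in 58.8% and 35.7%. TATAAA was in 9.80% of the members' regions and 13.6% of all. The core of the amino acid response element, TGATGNAA, was in 3.92% and 3.97%, and its members were Asns and Got1. These are matches of letters and no measure of binding.

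**Figure D2:**
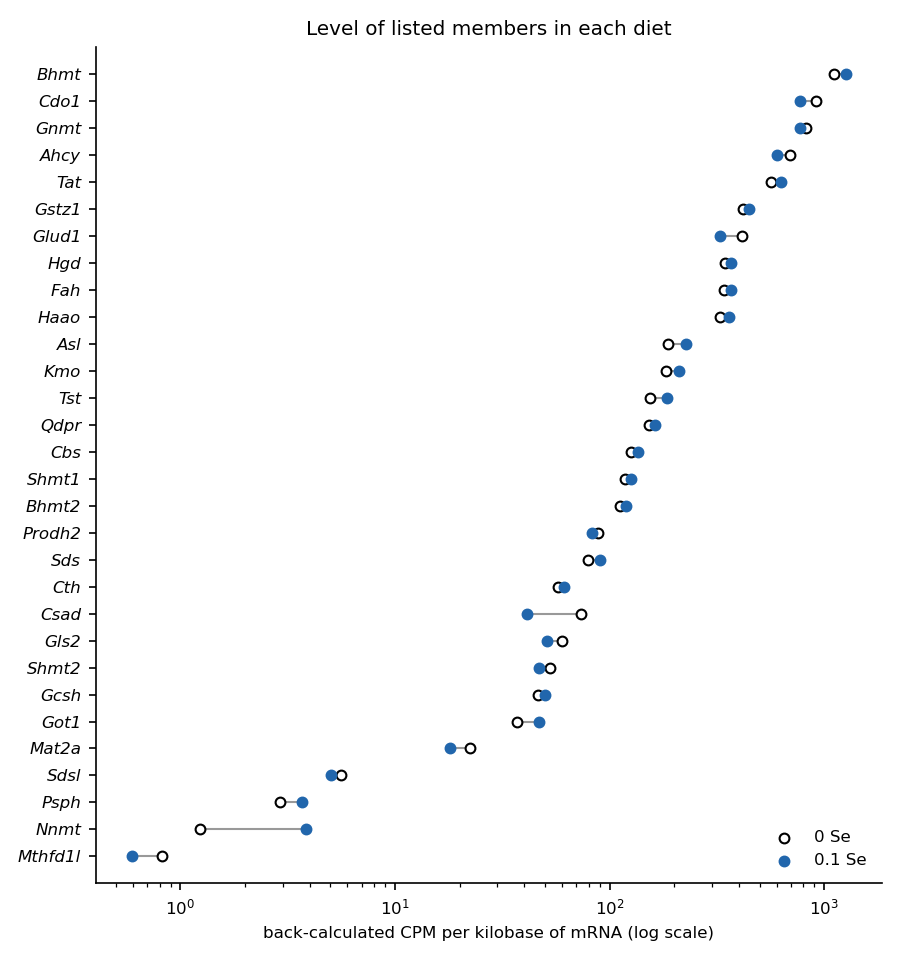
Level of the 30 listed members in each diet, as back-calculated CPM per kilobase of mRNA on a log scale, in order of mean level; open points are 0 Se and filled points 0.1 Se. The pairs of points nearly touch for most genes, while those of Nnmt (1.23 and 3.83) and Csad (73.9 and 41.1) are apart.

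Per kilobase of mRNA the listed members spanned from 0.70 CPM for Mthfd1l to 1188 CPM for Bhmt. Cdo1 at 845, Gnmt at 793, Ahcy at 646 and Tat at 595 CPM per kilobase followed Bhmt, so 4 of the 5 most abundant listed members belonged to methionine and sulfur metabolism. Csad, with a mean of 57.5 CPM per kilobase, held place 21. In 0 Se, its 73.9 CPM per kilobase was above the 0 Se level of Cth, and in 0.1 Se, its 41.1 CPM per kilobase was below that of Cth, whose mean was 59.2. The levels of Ahcy and Bhmt are uncertain. Reads of 50 bases were kept only where they aligned to 1 mRNA, and 73.9% of the 50-base windows of Ahcy recur in another annotated gene (Gm4737) and 45.8% of those of Bhmt in Bhmt-ps1. Bhmt2 shared 48 of its 2405 windows, and the other 27 listed members shared none. Only exact matches among annotated protein-coding mRNAs were counted, while the alignment allowed 2 mismatches, so nearly identical copies were missed. For Shmt1 the mRNA searched had 1324 bases, against the 2065 listed. In addition, 6 listed members (Gls2, Gstz1, Sds, Shmt1, Shmt2 and Bhmt) overlap an exon on the opposite strand, and the sources do not say whether strand was used in counting.

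**Figure D3:**
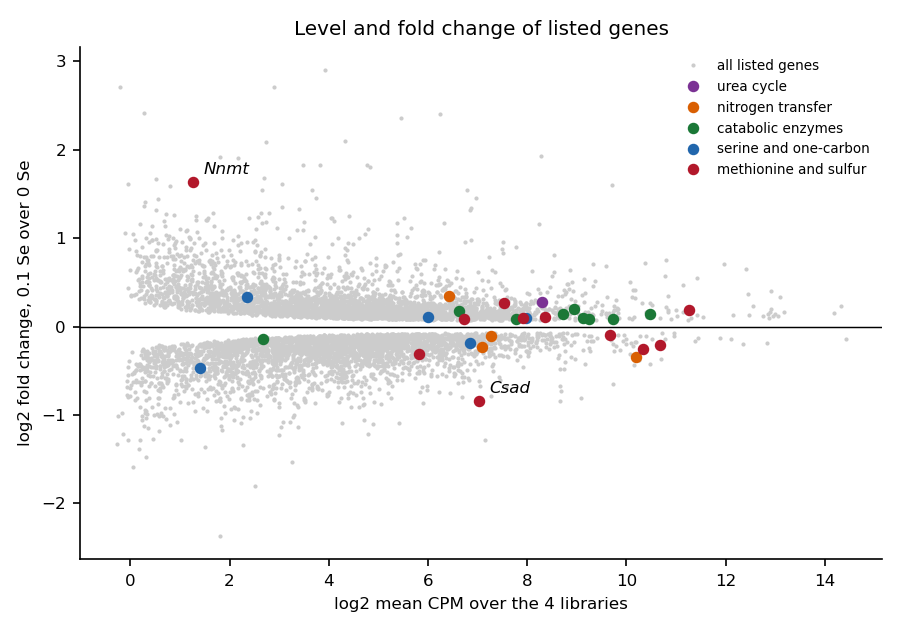
Log2 fold change (0.1 Se over 0 Se) against the log2 mean CPM over the 4 libraries for the 7000 listed genes (grey) and the 30 listed members (coloured by pathway). The empty band around 0 is where genes with p-values above 0.553 are not listed; it is wider for scarce genes, where Nnmt lies.

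How small a change could be seen depended on abundance. For listed genes above 100 CPM, where 22 of the 30 listed members lie, the median SE of the log2 fold change was 0.13, and a 1.19-fold change was enough for an unadjusted p of 0.05. At this SE a gene would be listed from a 1.05-fold change upward. For genes from 2 to 10 CPM, such as Nnmt, Psph, Sdsl and Mthfd1l, the median SE was 0.24 and the matching changes were 1.39-fold and 1.11-fold. Each of the 26 unlisted members either was not tested, for want of counts or of a match, or had a p-value above 0.553, and these cannot be told apart here. None of the 26 was listed under a RefSeq synonym.

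**Figure D4:**
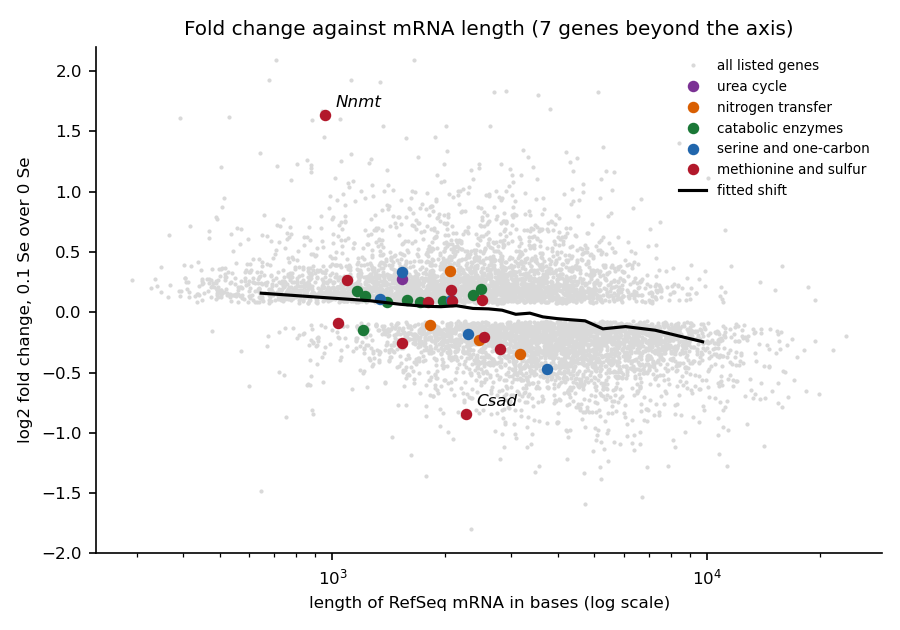
Log2 fold change (0.1 Se over 0 Se) against the length of the RefSeq mRNA on a log scale for the listed genes (grey), the 30 listed members (coloured by pathway) and the shift fitted in 20 length classes (black line). The fitted shift falls from 0.16 for the shortest genes to -0.24 for the longest, and Nnmt and Csad lie far from it.

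Fold changes moved with mRNA length across all listed genes. The fitted log2 shift was 0.16 in the shortest class, with a median length of 645.5 bases, and -0.24 in the longest, with a median of 9719.5 bases. After subtraction of this shift, the log2 fold change was 1.51 for Nnmt and -0.89 for Csad, and both remained called. The group medians became 0.21 for the urea cycle, -0.21 for nitrogen transfer, 0.04 for the catabolic enzymes, 0.02 for serine and one-carbon genes and 0.04 for methionine and sulfur genes. No listed member changed sign or crossed the FDR threshold.

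Beyond the members, 106 further genes of the same pathways (transporters, branched-chain, lysine and histidine breakdown, folate, choline and glutathione synthesis) were looked up, and 53 were listed. Among those that passed the FDR without reaching 1.5-fold were Papss1, Ppm1k and Gclc. Papss1, which makes the sulfate donor PAPS, was at 1.48-fold with an FDR of 0.0134. Ppm1k, the phosphatase that activates branched-chain ketoacid dehydrogenase, was at 0.743-fold with an FDR of 0.0233, and Gclc, which joins glutamate to cysteine for glutathione, at 0.757-fold with an FDR of 0.0374. With the length shift removed, Papss1 still passed at an FDR of 0.0272, while Ppm1k at 0.235 and Gclc at 0.0622 did not. The median log2 fold change of the 53 genes was -0.09, with 22 points above 1 and 31 below.

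Some markers of cell types, chosen with earlier results of these data known, also differed between the diets. Among all genes tested, 4.57% passed the FDR and 3.17% were called, 1.70% as higher and 1.47% as lower. Of 8 Kupffer cell and macrophage markers, 7 were listed, all 7 were higher in 0.1 Se with an FDR under 0.05, and 4 were called. With the length shift removed, 5 of the 7 passed the FDR and 3 were called, since Vsig4 and Timd4 no longer passed. Summed over the 7, their level was 413 CPM in 0 Se and 619 CPM in 0.1 Se. Of 8 stellate cell and matrix genes, all were listed with points below 1, and 3 (Reln, Col1a1 and Col3a1) were called lower. With the length shift removed, Reln, a long mRNA, was no longer called at an FDR of 0.248, and the median log2 fold change of these 8 genes went from -0.53 to -0.34. Their summed level was 538 CPM in 0 Se and 396 CPM in 0.1 Se. Of 8 hepatocyte markers, 4 (Apoa1, Serpina1a, Apob and Fgb) were listed and none was called, with summed levels of 39030.3 CPM in 0 Se and 39900.3 CPM in 0.1 Se. Of these Fgb was at 1.32-fold, with an FDR of 0.0268 that became 0.102 with the length shift removed. Of 8 endothelial, 6 cholangiocyte and 8 lymphocyte markers, 5, 1 and 1 were listed and none was called. The part of these cell types in the values of Nnmt and Csad was not tested.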

How the data were processed

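The study sequenced liver RNA of 2 mice per diet after rRNA depletion, in 50-base single-end reads. The authors aligned reads with Bowtie to RefSeq mRNAs of mm9, the longest isoform of each gene, kept unique alignments with up to 2 mismatches, and compared genes above 1 CPM in at least 3 samples with edgeR. Over these 4 libraries that filter needs a 0 Se library above 1 CPM, yet Lmod2 was listed at a back-calculated 0.23 CPM in 0 Se. How the filter was applied is not known here. Log2 fold changes and log2 average CPM are the values the authors deposited. The p-values and FDR (Benjamini-Hochberg) are also those the authors deposited, because their results hold 0 columns for single mice. Neither tool versions nor the test and its normalization are given in the sources used here. The sign follows the RNA-Seq genes the study lists as higher in 0.1 Se.

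The members and all gene lists were chosen with earlier results of these data known. Calls followed the study, an FDR under 0.05 and above 1.5-fold. The number tested, 11033, is FDR times rank divided by p, and 7000 genes (63.4%) are listed. As an approximation, the SE was the log2 fold change over the normal quantile matching its p-value. The length shift was fitted in 20 classes with allowance for unlisted p-values and tested on simulated data. Alternatives were no fold threshold, an FDR under 0.01, Bonferroni adjustment, a test against 1.5-fold, a mean of at least 5 CPM and removal of the length shift. Full values are given for members with an FDR under 0.05, and in each pathway for the highest and lowest fold change and the highest level per length. Tst and Mat2a, the pair Cbs and Cth, Gnmt and Cdo1 were added after their values were seen. Of the further pathway genes, 1 result is not reported here. Positions are from GENCODE vM1 (mm9) and start regions from RefSeq (GRCm38.p6). Calculations used scipy 1.17.1, numpy 2.4.6 and pandas 2.3.3 in Python 3.11.15, and plots matplotlib 3.10.9.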

Additional observations from a re-analysis of the deposited data

How the results depend on the processing

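With 2 mice per diet and no values of single mice, leaving out each mouse could not be run, and 1 mouse may decide a call. The count of members called higher was 1 and fell to 0 in a test against a 1.5-fold change, where the FDR of Nnmt was 0.118, and to 0 with a mean of at least 5 CPM, a filter that removes Nnmt (mean 2.41 CPM). The count of members called lower was 1 and fell to 0 under Bonferroni adjustment, where Csad had 0.0579, and to 0 in the test against a 1.5-fold change. Both counts stayed at 1 with no fold threshold, with an FDR under 0.01 and with the length trend removed. Removing that trend changed the sign or the call of none of the 30 listed members, and all 6 medians kept their sign. Depth per library is unknown here, and genes under 2 CPM had a median SE of 0.39 on the log2 scale. No paired analysis was possible because the mice of the 2 diets share no replicate numbers.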

Other observations

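Several members are known targets of hormones or stress pathways, and the other targets on those lists had points on both sides of 1. Of 15 genes responsive to glucocorticoid or glucagon, 10 were listed and 3 were called, where 3.17% of all genes tested were called. The genes were chosen with earlier results of these data known, so this count is no test of them as a set. Zbtb16 and Fkbp5, which are induced by glucocorticoid, were 3.55-fold and 2.15-fold higher in 0.1 Se, with an FDR of 1.77e-21 for Zbtb16 and 2.17e-05 for Fkbp5. G6pc, the last enzyme of glucose release, was lower at 0.605-fold with an FDR of 0.00311. The listed amino acid enzymes among the 15, Tat, Sds and Got1, were not called, at 1.11-fold, 1.13-fold and 1.27-fold. Pck1 was at 1.09-fold with an FDR of 0.730. Per1 at 1.41-fold, Tsc22d3 at 1.19-fold and Igfbp1 at 0.747-fold were not called either. Of the 10 listed genes, 8 had points above 1 and 2 below. Tdo2, Cps1 and Gpt2, the other amino acid enzymes among the 15, were not listed.

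Of 20 targets of ATF4, the factor that answers amino acid shortage, 12 were listed and 1 was called, where 3.17% of all genes tested were called. It was Ddit3 at 1.51-fold with an FDR of 0.0221. This call was lost with the shift by mRNA length removed, where the FDR of Ddit3 was 0.139. Chac1, which degrades glutathione, was at 2.73-fold with an FDR of 0.0610, from 0.80 CPM in 0 Se to 2.17 CPM in 0.1 Se. Vldlr was at 0.654-fold with an FDR of 0.0561 and Sesn2 at 0.630-fold with an FDR of 0.130. Of the 12, 7 had points above 1 and 5 below. An unadjusted p under 0.05, which 14.7% of all genes tested passed, was reached by 2 higher and 3 lower. Atf4 itself was among the lower ones, at 0.843-fold. The members on that list, Shmt2 and Cth, were at 0.881-fold and 1.06-fold, and Asns, Psat1 and Phgdh were not listed.

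Urea and glutamine enzymes are zoned along the liver lobule. Of 12 markers of the periportal zone, 6 were listed and none was called, and 0 of these 6 passed an unadjusted p of 0.05. Of 12 markers of the pericentral zone, 8 were listed. Axin2, a target of Wnt signalling, was called lower at 0.489-fold with an FDR of 0.00333, and Tbx3 was at 0.492-fold with an FDR of 0.0650. Cyp1a2 at 0.822-fold and Lgr5 at 0.674-fold had an unadjusted p of 0.0366 and 0.0454, which makes 4 of the 8 under 0.05, where 14.7% of all genes tested lay. These 4 had points below 1, while Cyp7a1 at 1.21-fold and Lect2 at 1.10-fold had points above 1. With the length shift removed, Lgr5 had a p of 0.0799 and Cyp7a1 one of 0.0378, so that 3 were lower and 1 higher at an unadjusted p under 0.05, and Axin2 stayed called. The median log2 fold change of the listed pericentral markers was -0.24, against 0.09 for all listed genes. Glul and Oat, the members among them, were not listed. The difference between the zones was not tested.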
